A study of Mus musculus with 4 samples.

Results

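Mast cells are tissue-resident immune cells whose granules hold proteases, and 9 of their genes were followed on 4 arrays of the mouse gastric corpus. They were 6 protease genes (Mcpt1, Mcpt2, Mcpt4, Cma1, Tpsb2 and Cpa3) and 3 receptor genes (Kit, Ms4a2 and Fcer1a). Members were the probe sets whose platform annotation gave exactly 1 of these symbols, 12 probe sets for 9 of the 18193 genes named on the array. All mice were wild type and 6 weeks old. Pools were collected 12 hours, then 2.5 days, then 4.5 days after tamoxifen, injected into the peritoneum at 5 mg per 20 g of body weight, and the fourth pool received vehicle (90% sunflower seed oil with 10% ethanol) and was collected at 2.5 days. The same vehicle array served all 3 comparisons with tamoxifen. No vehicle pool was collected at 12 hours or 4.5 days, so collection time and treatment cannot be told apart in those comparisons. Each group was 1 array of RNA pooled from 3 mice, so nothing measures how mice varied, no test was possible and no p-value is given. The injections lasted 1 or 3 days and the mice were of the C57BL/6, BALB/c and FVB/N strains. The labels assign neither to an array, so strain and treatment cannot be told apart in any difference below. High-dose tamoxifen was given with the aim of inducing SPEM, a metaplasia of corpus glands named after spasmolytic polypeptide. The genes were chosen by their role in mast cells and selected on earlier results of the same arrays, where Mcpt1 at 4.5 days was among the largest differences from vehicle.

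Mouse mast cells are divided by place and granule content. Mucosal mast cells lie in and under the epithelium of the gut and store the chymase-family proteases encoded by Mcpt1 and Mcpt2, while connective tissue mast cells lie in the submucosa, skin and peritoneum and store Mcpt4, Cma1 and the tryptase Tpsb2 bound to heparin. Both kinds need the stem cell factor receptor Kit and carry the high-affinity IgE receptor, whose IgE-binding alpha chain is encoded by Fcer1a and whose signal-amplifying beta chain is encoded by Ms4a2. Transforming growth factor beta is known to induce Mcpt1 in cultured mouse mast cells.

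Values are log2 expression, so a difference of 1 is 2-fold, and each probe set has its own scale, so levels are compared between arrays and not between genes. Where a gene had several probe sets, the one brightest on average was used. A gene counted as expressed in a comparison when the array on which it was brighter read it at or above that array's median (5.29 to 5.34). By this measure Mcpt2, Cpa3 and Kit were at or above the median on all 4 arrays, Cma1 on 3, Tpsb2 on 2 (vehicle and 4.5 days), Mcpt1 and Mcpt4 on the 4.5-day array alone, and Ms4a2 and Fcer1a on none. For technical error, 18 hybridisation controls differed between tamoxifen arrays and vehicle with an SD of 0.08 to 0.10. The closest pair of arrays, 4.5 and 2.5 days, had a robust SD of differences of 0.15 across expressed genes, and for tamoxifen arrays against vehicle it was 0.27 at 12 hours, 0.35 at 2.5 days and 0.39 at 4.5 days.

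Both mucosal protease genes were highest 4.5 days after tamoxifen. Mcpt1, which encodes the chymase mMCP-1, was at 3.38 in vehicle, 4.86 at 12 hours, 4.79 at 2.5 days and 7.02 at 4.5 days. The 4.5-day array stood well apart, the 12-hour and 2.5-day arrays differed by less than the technical spread, and vehicle was lowest. The differences from vehicle were 1.48, 1.42 and 3.64 at the 3 times. The vehicle value lies well below the array median of 5.31, among dim probe sets whose differences RMA compresses, and whether it was above background was not tested. No fold is therefore given against it, and the size of any difference of Mcpt1 from vehicle rests on this 1 dim value. The step of Mcpt1 from 2.5 to 4.5 days does not use the vehicle value. It starts, however, from a 2.5-day value of 4.79 that was also below its array median of 5.29. In addition, at 12 hours and 2.5 days both arrays compared were below the median, so those differences were not counted as expressed. Mcpt2, which encodes mMCP-2, was at 7.03 in vehicle, 7.38 at 12 hours, 7.81 at 2.5 days and 9.39 at 4.5 days. All 4 arrays were above the median for this gene, and the 4.5-day array was again the one apart. Mcpt2 differed from vehicle by 0.35, 0.78 and 2.37, the last a 5.16-fold difference. Each mucosal gene was read by 1 probe set, so no further probe set was at hand.

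**Figure D1:**
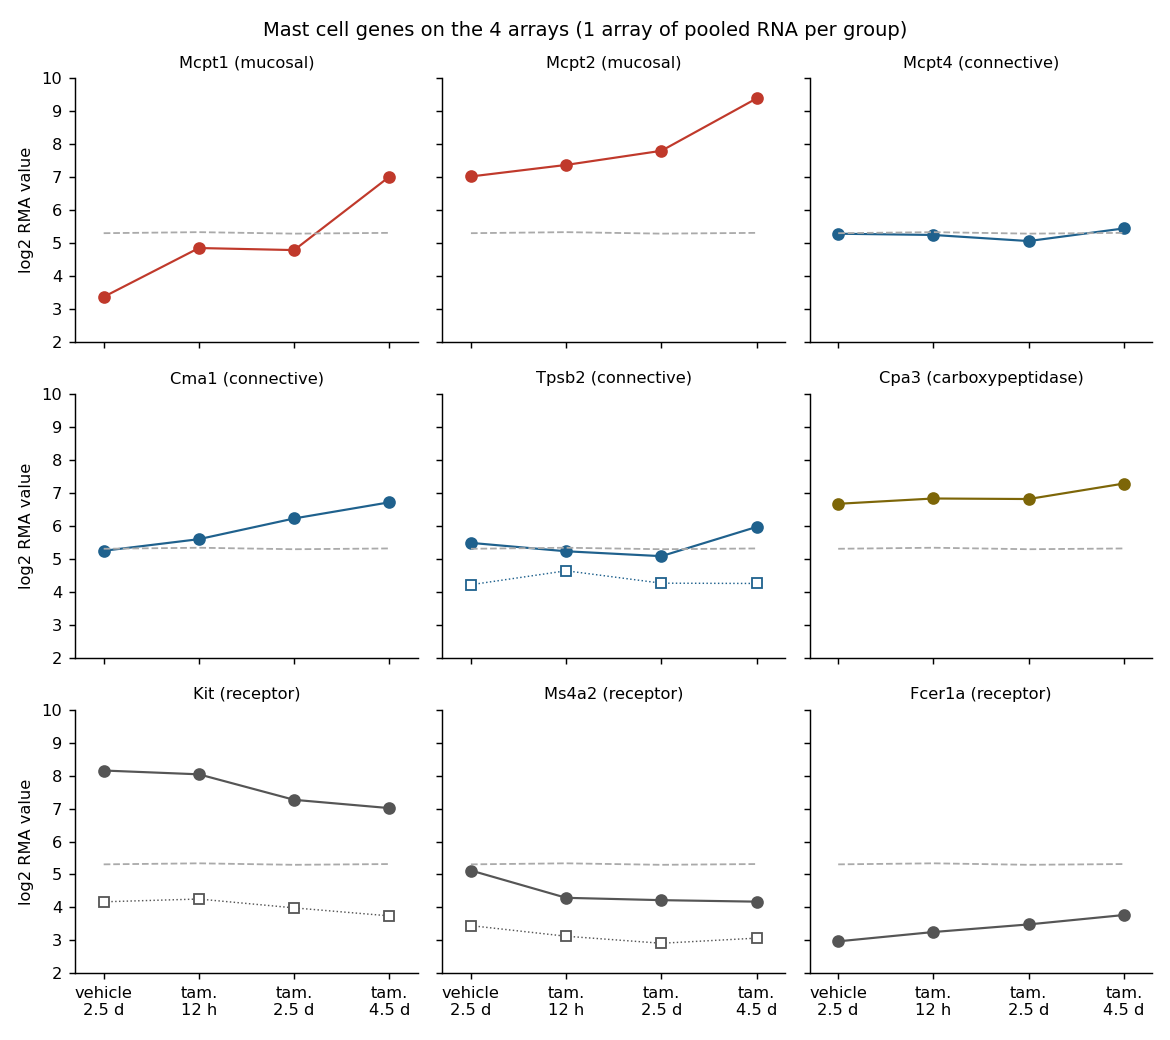
Log2 RMA values of the 9 genes on the vehicle array and on the tamoxifen (tam.) arrays at the 3 times, 1 point per array. Filled circles are the probe set used, open squares a second probe set, and dashed lines the median of each array; Mcpt1 and Mcpt2 reach 7.02 and 9.39 at 4.5 days, whereas Mcpt4 stays between 5.07 and 5.45.

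The connective tissue proteases had smaller differences, and of these Cma1 was the exception that passed 2-fold. Mcpt4, the chymase mMCP-4, was at 5.29 in vehicle, 5.25 at 12 hours, 5.07 at 2.5 days and 5.45 at 4.5 days. All 4 values lay close to the array medians, within a range of 0.38, and the differences from vehicle were -0.04, -0.22 and 0.16. Cma1, which encodes mMCP-5, a chymase-family protease with elastase-like activity in the mouse, was at 5.25 in vehicle, 5.60 at 12 hours, 6.23 at 2.5 days and 6.72 at 4.5 days. Its differences from vehicle were 0.35, 0.98 and 1.47, so it was already near 2-fold at 2.5 days, where vehicle had been collected at the same time. The tryptase gene Tpsb2 was at 5.49 in vehicle, 5.23 at 12 hours, 5.08 at 2.5 days and 5.97 at 4.5 days, which gave differences of -0.25, -0.40 and 0.48. A second, dimmer probe set of Tpsb2, at 4.22 to 4.64, differed from vehicle by 0.42, 0.05 and 0.04, so the probe sets disagreed in direction at 12 hours and 2.5 days. Cpa3, a carboxypeptidase whose storage in granules depends on mMCP-5, was at 6.67 in vehicle, 6.83 at 12 hours, 6.82 at 2.5 days and 7.29 at 4.5 days. Its difference of 0.61 at 4.5 days exceeded the robust SD of that comparison but not 2-fold.

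Set side by side, the mean difference at 4.5 days was 3.01 for the mucosal proteases (2.37 and 3.64) and 0.70 for the connective tissue proteases (0.16 to 1.47). This gap of 2.30 between the classes includes the dim vehicle value of Mcpt1. The connective tissue genes were at 5.25 to 5.49 in vehicle, close to the array median of 5.31, and Mcpt2 was at 7.03. RMA compresses differences of dim genes, and the part of this in the gap was not tested. At that time the lower mucosal gene, Mcpt2, was 0.90 beyond the higher connective tissue gene, Cma1. At 12 hours and 2.5 days the classes overlapped, because Cma1 differed from vehicle by 0.00 and 0.20 more than Mcpt2. The gaps between class means were then 0.90 and 0.98 and came mostly from Mcpt1. With Mcpt2 alone as the mucosal gene, a choice made after seeing the data, they were 0.33 and 0.66, and 1.66 at 4.5 days. The 4.5-day gap was 2.32 with Cpa3 counted among the connective tissue genes.

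**Figure D2:**
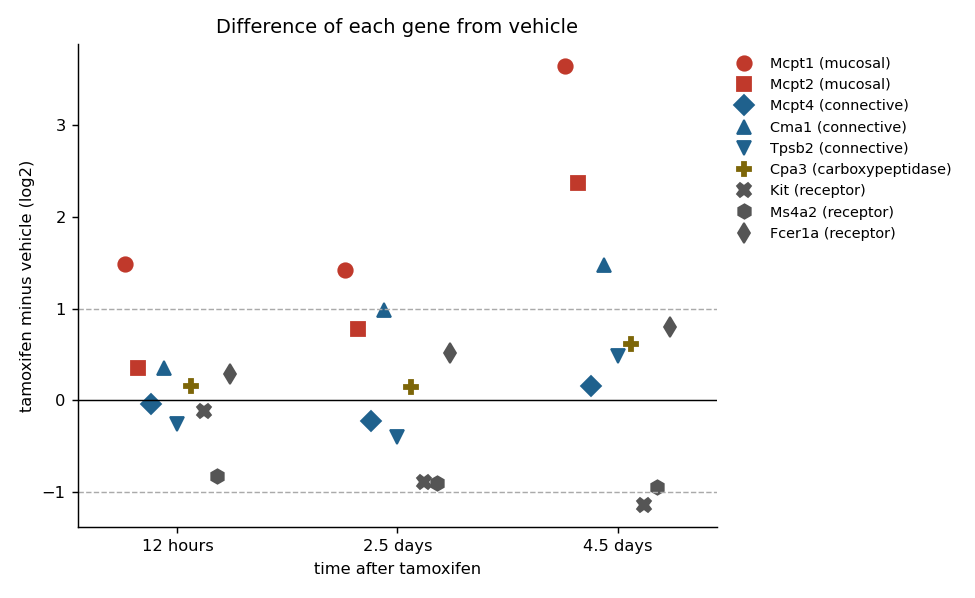
Difference of each gene from the vehicle array (log2) at the 3 times after tamoxifen, 1 point per gene, with dashed lines at 2-fold. At 4.5 days Mcpt1, Mcpt2 and Cma1 lie above the upper line and Kit lies below the lower one; Ms4a2 and Fcer1a were below the array median throughout, and so was Mcpt1 at 12 hours and 2.5 days.

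For Mcpt2, most of the 4.5-day difference from vehicle of 2.37 fell in the last interval. For Mcpt1 the share is not known, because its vehicle value was dim. From the 2.5-day to the 4.5-day array Mcpt1 differed by 2.23 and Mcpt2 by 1.59, in 3rd and 7th place among 12123 expressed genes. Of all expressed genes 0.247% were at least 2-fold higher over this step and 0.181% lower, and Mcpt1 and Mcpt2 were the members among the first. The other proteases ran the same way by less, with Tpsb2 at 0.89, Cma1 at 0.49, Cpa3 at 0.47 and Mcpt4 at 0.38. From 12 hours to 2.5 days Mcpt1 differed by -0.06, Mcpt2 by 0.43 and Cma1 by 0.63, and Tpsb2 and Mcpt4 by -0.15 and -0.18. No member passed 2-fold over that step, beside 2.58% of expressed genes higher and 0.655% lower. Against vehicle at 4.5 days, 7 of the 9 members counted as expressed. Mcpt1, Mcpt2 and Cma1 were at least 2-fold higher, beside 3.8% of 12310 expressed genes, and Kit was at least 2-fold lower, beside 2.72%. At 12 hours and at 2.5 days 5 of the 9 counted as expressed and none passed 2-fold in either direction. Of all expressed genes, 0.994% and 1.92% did at 12 hours, higher and lower, and 3.32% and 1.93% at 2.5 days. Without the filter Mcpt1 was past 2-fold at both times, beside 0.698% and 2.33% of all 18193 genes higher. The genes were chosen with these values known, so the counts describe them and support nothing further.

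The receptor genes did not run together: Kit and Ms4a2 were lower than vehicle on the later arrays, and Fcer1a was higher at dim values. Kit was at 8.15 in vehicle, 8.04 at 12 hours, 7.26 at 2.5 days and 7.01 at 4.5 days, so the 2 later arrays were the low ones. The differences from vehicle were -0.12, -0.89 and -1.14, and a dimmer second probe set gave 0.08, -0.18 and -0.43. As the mean of both probe sets the 4.5-day difference was -0.78, and it was -0.98 relative to the hybridisation controls, so Kit then missed 2-fold. Ms4a2 was at 5.12 in vehicle, 4.29 at 12 hours, 4.22 at 2.5 days and 4.18 at 4.5 days, and its second probe set, at 2.91 to 3.45, was also highest in vehicle. Fcer1a was at 2.97 in vehicle, 3.26 at 12 hours, 3.49 at 2.5 days and 3.77 at 4.5 days. Both IgE receptor chains were thus below the array median on every array, Ms4a2 nearly 2-fold lower (-0.94) and Fcer1a higher by 0.80 at 4.5 days, and at such dim values neither direction is firm. In pooled tissue RNA, a change in the number of cells of a type and a change in RNA per cell cannot be told apart.

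Kit also marks interstitial cells of Cajal, the pacemaker cells of the gastric wall, and Kit is part of their list of 6 measured genes. Their chloride channel gene Ano1 was 0.65 above vehicle at 4.5 days and Thbs4 was 1.0 below. The gap junction gene Gja1 was 1.16 above, but its 6 probe sets ran from -0.03 to 1.21. The remaining members, Prkcq and Gucy1b1, differed by -0.18 and 0.07, and the median of the list was -0.06. All 6 smooth muscle genes were lower than vehicle at every time after tamoxifen, with medians of -0.39, -0.69 and -0.65. Kit differed by -0.12, -0.89 and -1.14 at these times. The part of muscle layers in the difference of Kit was not tested.

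The Mcpt1 and Mcpt4 genes lie close together in the chymase locus on mouse chromosome 14, where the order of protein-coding genes in RefSeq (GRCm38.p6) is Cma1, Cma2, Mcpt1, Mcpt2, Mcpt9, Mcpt4, Mcpt8, Ctsg and the granzyme genes. The sequences upstream of their starts are shown because the 4.5-day difference from vehicle was 3.48 larger for Mcpt1, dim in vehicle, than for Mcpt4. Each is the 250 bases before the RefSeq start, 5′ to 3′ on the strand of the gene, from chr14:56017714-56017963 (plus strand) for Mcpt1 and chr14:56062311-56062560 (minus strand) for Mcpt4. Capitals mark the GATA motif, searched as AGATAA or TGATAA on both strands.
Mcpt1: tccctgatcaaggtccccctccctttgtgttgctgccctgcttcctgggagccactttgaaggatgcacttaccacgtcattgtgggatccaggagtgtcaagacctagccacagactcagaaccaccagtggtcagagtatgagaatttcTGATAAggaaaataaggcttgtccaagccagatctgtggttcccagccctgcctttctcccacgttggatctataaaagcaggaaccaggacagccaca
Mcpt4: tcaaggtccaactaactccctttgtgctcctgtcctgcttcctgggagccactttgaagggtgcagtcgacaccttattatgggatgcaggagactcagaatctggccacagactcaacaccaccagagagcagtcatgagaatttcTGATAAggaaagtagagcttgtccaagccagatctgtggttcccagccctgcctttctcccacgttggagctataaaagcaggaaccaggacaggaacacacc
In a global alignment the pair had 209 identical bases in 258 columns (81.0%), against 38.6% to 49.3% for the other pairs among the 7 members with a RefSeq start region. For Mcpt2 and Tpsb2 no start region was in the sources used here, so neither entered the alignments or the motif searches. Both hold a single GATA match, TGATAA, which begins 99 bases before the start of Mcpt1 and 103 bases before that of Mcpt4. Factors of the GATA family, among them GATA2, are known to act in mast cell gene expression. A GATA match was found in 5 of the 7 members (Mcpt1, Mcpt4, Cpa3, Ms4a2 and Fcer1a) and in 17.0% of 27025 upstream regions of the same length, 1 per gene. The E-boxes CATGTG and CACGTG, letters that factors such as MITF can bind, were found on either strand in 1 of the 7 (Fcer1a) and in 17.6% of all regions. These matches describe letters in a window and are no evidence of binding.

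Mcpt1, Mcpt2, Mcpt4 and Mcpt9 are close paralogues, and whether their probe sets read each other's transcripts was not tested. Mcpt9 and Cma2 were not analysed here. The other 9 measured proteases of the locus family (Mcpt8, Ctsg and 7 granzymes) were below the array median on every array, and their differences from vehicle at 4.5 days lay between -0.35 and 0.36. The basophil protease gene Mcpt8 was among them, at 0.06.

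Other genes of mast cells showed no shift as a list. Of 19 measured genes 12 counted as expressed, none was at least 2-fold higher than vehicle at any time, 2 were lower at 4.5 days, and the median difference was 0.00, -0.06 and -0.01, beside -0.04, 0.02 and -0.01 over all expressed genes. Of all expressed genes 0.994%, 3.32% and 3.8% were at least 2-fold higher at the 3 times, and 2.72% were lower at 4.5 days. None higher among 12 expressed genes is close to these shares. The tryptase gene Tpsab1 was dim and differed by 0.43, 0.27 and 0.29. Gata2 differed by 0.06, -0.06 and -0.01. Mitf, a transcription factor that mast cells share with other cells, differed by -1.0, -0.68 and -1.03, but a second probe set gave 0.13 at 4.5 days. Smpx, better known as a muscle gene, was -1.60 at 4.5 days. Hdc, the histamine-forming enzyme, which endocrine cells of the corpus also express, differed by -0.10, 0.66 and -0.36. Over the step from 2.5 to 4.5 days, in which Mcpt1 and Mcpt2 differed most, 0.247% of all expressed genes were at least 2-fold higher and 0.181% lower. Of the 19 genes of the list 12 counted as expressed. Of these 1 was higher and 1 lower by as much, with a list median of -0.10. The higher one was Rgs13, a regulator of G protein signalling that mast cells share with other cells, at 6.62 in vehicle, 6.83 at 12 hours, 6.00 at 2.5 days and 7.33 at 4.5 days. It was thus lowest at 2.5 days and highest at 4.5 days, 1.33 higher over the step and 0.71 above vehicle. The lower one was Hdc, at -1.02 over the step. With the mean of its probe sets, or relative to the hybridisation controls, Hdc fell short of 2-fold.

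Of 13 measured genes of IgE receptor signalling 10 counted as expressed and none passed 2-fold. Beside this, 0.994%, 3.32% and 3.8% of all expressed genes were higher at the 3 times, and 1.92%, 1.93% and 2.72% lower. The median differences of the 13 genes were 0.14, 0.19 and 0.15. The common gamma chain gene Fcer1g, shared with macrophages, differed by 0.26, 0.79 and 0.67, while leukocyte genes as a whole had medians of 0.62, 0.92 and 0.93 over 5 genes. Ptprc, the pan-leukocyte phosphatase CD45, differed by 0.62, 0.61 and 0.93. At 4.5 days the difference of Mcpt1 exceeded that of Ptprc by 2.72 and that of Mcpt2 did so by 1.44. For Cpa3, Tpsb2 and Mcpt4 it was smaller than that of Ptprc. A second probe set of Ptprc gave -0.22 at 4.5 days, below all 3, so this order depends on the probe set.

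Among 19 ligands, receptors and activators known to act on mast cell growth or on mucosal protease expression, 1 was at least 2-fold higher and 1 lower than vehicle at 12 hours, 1 was higher at 2.5 days and 2 were higher at 4.5 days. Between 11 and 12 of them counted as expressed, beside shares over all expressed genes of 0.994% higher and 1.92% lower at 12 hours, 3.32% higher at 2.5 days and 3.8% higher at 4.5 days. Il33, an alarmin of epithelial and stromal cells that activates mast cells, was at 9.60 in vehicle, 8.32 at 12 hours, 10.33 at 2.5 days and 11.36 at 4.5 days. It was lower than vehicle by 1.28 on the log2 scale at 12 hours and higher by 1.76 at 4.5 days, and its receptor gene Il1rl1 was not analysed here. Csf2rb, the common beta chain of the receptors for IL-3, IL-5 and GM-CSF, differed by 0.92, 1.12 and 1.37. Itgb6, a subunit of the epithelial integrin that activates transforming growth factor beta, was highest at 12 hours, with differences of 1.34, 0.84 and 0.58, although a second probe set gave 0.19 at 4.5 days. Tgfb1 differed by 0.45, 0.74 and 0.80, and by 0.07 at 4.5 days with its other probe set. Kitl, the ligand of Kit, differed by 0.11, 0.12 and -0.01. The type 2 cytokine genes Il4, Il9 and Il13, and the mast cell growth factor gene Il3, differed from vehicle at 4.5 days by values between -0.42 and 0.13. Over the list the medians were 0.11, 0.12 and 0.13.

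Of 11 homing genes 6 or 7 counted as expressed, and Vcam1 alone was at least 2-fold from vehicle, higher at 2.5 and 4.5 days. The shares of all expressed genes higher at these times were 3.32% and 3.8%. Vcam1 encodes the vascular ligand of alpha 4 integrins, by which mast cell progenitors are known to enter tissue. It was at 6.70 in vehicle, 7.38 at 12 hours, 8.38 at 2.5 days and 8.27 at 4.5 days. Its 3 probe sets gave 0.04 to 1.57 at 4.5 days. Itgae, the chain of an integrin that holds leukocytes in epithelium, was below the median on all arrays and differed by 0.05, 0.01 and 0.33. All 5 measured basophil genes, Fcer1a included, were below the array median on every array, as were 4 of 5 eosinophil genes and 4 of 6 genes of type 2 lymphoid cells.

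**Figure D3:**
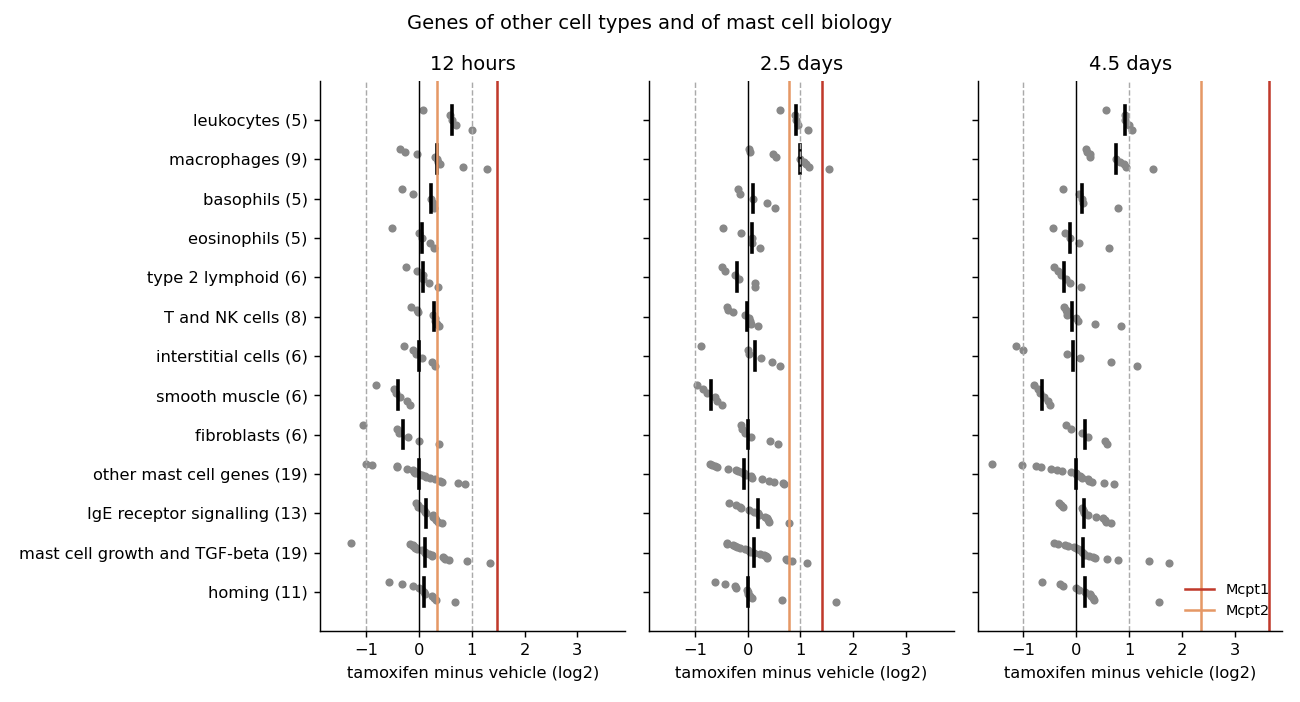
Differences from vehicle (log2) of genes of other cell types and of mast cell biology at the 3 times, 1 grey point per gene with the number of measured genes in brackets, black bars for list medians and dashed lines at 2-fold. Vertical lines mark Mcpt1 and Mcpt2, which at 4.5 days (3.64 and 2.37) lie beyond all points shown.

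All 9 measured genes of the gastric glands were above the median on every array, and so were the smooth muscle genes, so the pools were not epithelium alone. At 2.5 and at 4.5 days 4 of the 9 gland genes were at least 2-fold lower than vehicle, beside 1.93% and 2.72% of all expressed genes. At 4.5 days Pgc differed by -2.44, Cblif by -2.39, Atp4b by -1.31 and Atp4a by -1.10, with a list median of -0.37. The mean level of 7 pancreatic acinar genes was 6.85 in vehicle, 12.88 at 12 hours, 6.37 at 2.5 days and 6.08 at 4.5 days. For 7 squamous genes, markers of the forestomach, it was 8.92 in vehicle, 4.97 at 12 hours, 8.79 at 2.5 days and 8.80 at 4.5 days. By these means the 12-hour array was far above the other arrays in acinar genes and far below them in squamous genes. Of the squamous genes, Ivl was not lower than vehicle at 12 hours (4.55 in vehicle and 4.62 at 12 hours). The part of these tissues in the values of Mcpt1 and Il33 at 12 hours was not tested. At 4.5 days, where Mcpt1 and Mcpt2 were highest, the mean levels of both lists were within 1 unit of vehicle, but single genes were past 2-fold. Of the acinar genes, the lipase gene Cel differed by -1.52 and the colipase gene Clps by -1.92. Clps did not follow its list: it was at 14.67 in vehicle and 14.64 at 12 hours. The other 6 measured acinar genes were all at least 2-fold higher than vehicle at 12 hours. The high level of Clps is part of the list means above. Of the squamous genes, the keratin gene Krt4 differed by -1.07 and the involucrin gene Ivl by 1.54, with -0.32 from its other probe set. The part of these tissues in the values of Mcpt1 and Mcpt2 at 4.5 days was not tested either. Over fibroblast genes the median was 0.17 at 4.5 days, and over macrophage genes 0.76.

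The genes whose profile over the 4 arrays was nearest to Mcpt1 and Mcpt2 were found among 12024 named genes at or above the median on at least 1 array, by the root mean square distance of log2 values centred on each gene's mean. Nearest to Mcpt2 was Apoc2, an apolipoprotein that activates lipoprotein lipase, at a distance of 0.05, with differences from vehicle of 0.45, 0.92 and 2.40. Next came Msln, which encodes mesothelin, at 0.14, the guanylin gene Guca2a at 0.16, the uroguanylin gene Guca2b at 0.20 and the fatty acid receptor gene Ffar4 at 0.24. Nearest to Mcpt1 were Apoc2 (0.48), the antimicrobial lectin gene Reg3g (0.49), the surfactant protein gene Sftpd (0.49), Mcpt2 (0.50) and the cytochrome gene Cyp2c29 (0.53). Some of these genes, among them Cyp2c29 and Guca2a, were below the median on every array but that of 4.5 days. Likeness within the mucosal pair depended on the gene it was measured from. From Mcpt2, Mcpt1 was in 78th place at 0.50, behind the connective tissue gene Cma1 in 34th place at 0.43. From Mcpt1, Mcpt2 was in 4th place and Cma1 in 60th at 0.82. The distance also depends on the size of the differences, and for Mcpt1 it includes the dim vehicle value. The other proteases were farther from Mcpt2, with Cpa3 at 0.68, Tpsb2 at 0.70 and Mcpt4 at 0.83. With 4 arrays of 1 pool each, these distances describe the arrays and say nothing of shared control.

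**Figure D4:**
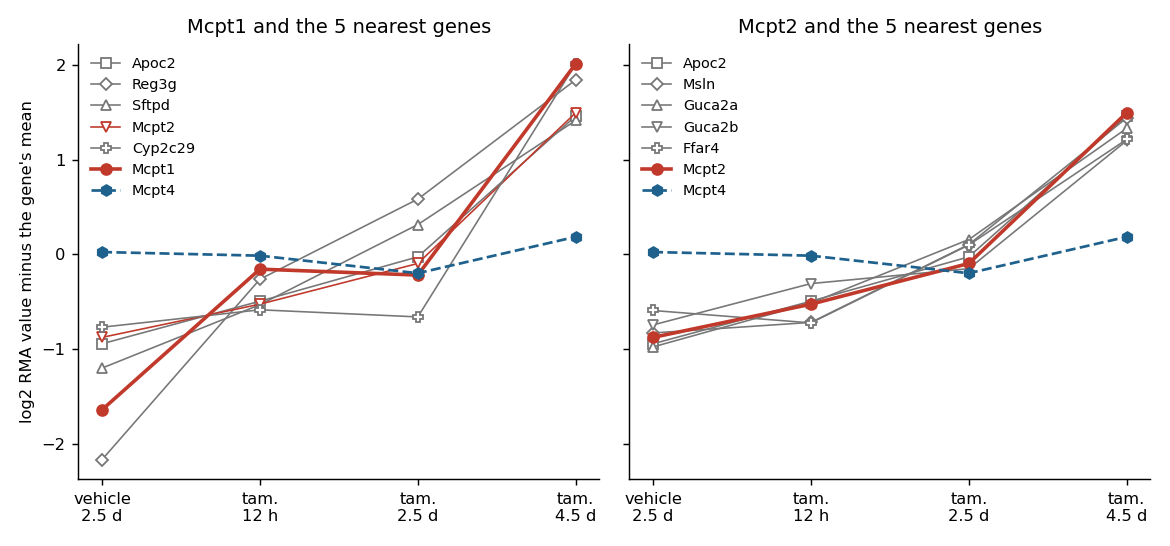
Log2 RMA values, centred on each gene's mean over the 4 arrays, of Mcpt1 (left) and Mcpt2 (right) with the 5 genes nearest to each and with Mcpt4. The lines of Mcpt2, Apoc2, Msln, Guca2a, Guca2b and Ffar4 run close together with a distance of at most 0.24, while Mcpt4 stays within a range of 0.38.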

How the data were processed

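The 4 groups of 1 array each (Affymetrix, 1 colour, 45101 probe sets) were taken from the title labels. The deposited values are log2 expression, and the submitters' processing notes name RMA and Partek as the authors' tools; versions were not given in the sources used here. The log base was inferred from the values, 2.06 to 14.85. RMA normalizes by quantiles, which hides a shift common to most genes, and it compresses differences of dim genes. RNA of 3 mice was pooled and amplified before labelling, per the labels' protocols.

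Probe sets were named from the platform annotation; 34945 had exactly 1 gene symbol, and 64 control probe sets were left out. Differences of log2 values were computed for 3 comparisons with vehicle and 2 steps, and 2-fold differences were counted (Python 3.11.15, pandas 2.3.3), with the calling steps tested on simulated data. Sequences are from RefSeq (GRCm38.p6) and were aligned with Biopython 1.88, and protein sequences were not used here. The number of arrays limits the precision. The members and lists were chosen with earlier results of these data known. Named genes were the members, up to 4 genes per list past 2-fold, a set of well-known genes, and the 5 nearest to Mcpt1 and to Mcpt2. Alternatives changed the probe set, scaling, filter, fold and class members.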

Additional observations from a re-analysis of the deposited data

Results flagged for a closer look

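2 genes lay at least 2-fold from vehicle in opposite directions at different times, and with 1 array per group the differences between times were not tested. Il33 differed by -1.28 at 12 hours and by 1.76 at 4.5 days. Cel, a pancreatic acinar gene, differed by 4.31 at 12 hours, by -1.39 at 2.5 days and by -1.52 at 4.5 days.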

How the results depend on the processing

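The 3.64 and 2.37 differences of Mcpt1 and Mcpt2 at 4.5 days were 3.81 and 2.53 after subtracting the hybridisation controls. Each of these genes has 1 probe set, so the probe set alternatives could not move them, and the scalings subtract 1 small constant per array, so neither says anything of their stability. Among the 9 members, no difference past 2-fold changed its direction under the alternatives run. Cma1 also has 1 probe set, so of the members past 2-fold only Kit, with 2 probe sets, could have done so. Other named genes changed direction at 4.5 days with another probe set, as Mitf (-1.03 and 0.13), Gja1 (1.16 and -0.03), Ivl (1.54 and -0.32) and the leukocyte gene Coro1a (1.06 and -0.20). No paired analysis was possible because each group is 1 array.

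Counts of members at least 2-fold higher than vehicle (none at 12 hours and 2.5 days, 3 at 4.5 days) were 1 at 12 hours and 1 at 2.5 days with no filter, since Mcpt1 then entered, 1 at 2.5 days after subtracting the controls and 2 there at 1.5-fold, and 1 at 4.5 days with the filter at the 75th percentile, which Mcpt1 and Cma1 did not pass. The 1 member lower at 4.5 days, Kit, was lost (0) with the mean of all probe sets (-0.78), with the controls subtracted (-0.98) and at 3-fold, and 1 was lower at 2.5 days at 1.5-fold. Over the step from 12 hours to 2.5 days, 1 member was higher and 1 lower at 1.5-fold. Over the step from 2.5 to 4.5 days, 1 rather than 2 were higher at the 75th percentile.

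The gaps between mucosal and connective tissue proteases of 0.90, 0.98 and 2.30 at 12 hours, 2.5 and 4.5 days were 1.46, 1.30 and 2.94 with Mcpt1 alone and 0.33, 0.66 and 1.66 with Mcpt2 alone. Without Cma1 they were 1.06, 1.41 and 2.68, and the first was 0.67 with the median probe set by absolute difference. The alternatives with Mcpt2 alone and without Cma1 were added after seeing the data. For the step to 2.5 days the gap of 0.08 was -0.16 with Mcpt1 alone, 0.33 with Mcpt2 alone and 0.35 without Cma1, and for the step to 4.5 days the gap of 1.32 was 1.64 with Mcpt1 alone and 1.0 with Mcpt2 alone.

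Over 71 genes in 5 lists (other mast cell genes, locus proteases, IgE receptor signalling, ligands and activators, homing), those higher than vehicle at 12 hours, 2.5 and 4.5 days (1, 2 and 3, all of them ligands, receptors, activators or homing genes) were 5, 9 and 6 at 1.5-fold and 0, 1 and 1 at 3-fold; those lower (1, 0 and 2) were 3, 4 and 5 at 1.5-fold, and at 3-fold 0 at 12 hours and 1 at 4.5 days. At each of the 3 times 40 of the 71 genes counted as expressed. The 2-fold shares over all expressed genes were 0.994%, 3.32% and 3.8% higher, and 1.92%, 1.93% and 2.72% lower. A 75th percentile filter left 0 higher at 12 hours and 1 lower at 4.5 days. With the mean of all probe sets 1 was higher at 2.5 days and 1 lower at 4.5 days, and 1 was higher at 2.5 days with the median probe set. With the controls subtracted 2 were lower at 12 hours and 1 at 4.5 days. Over the step to 2.5 days, 2 were higher, but 1 with the mean of probe sets, the median probe set, the median of expressed genes subtracted or 3-fold, and 1 was lower at 1.5-fold. Over the step to 4.5 days, 2 were higher and 1 lower. The higher count was 0 at 3-fold and 1 at the 75th percentile, and the lower count was 3 at 1.5-fold and 0 at 3-fold, with the mean of probe sets or under either scaling. Apart from those that change the fold, filter or genes counted, the cause of these shifts was not tested.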
